A study of Homo sapiens with 15 samples.

Results

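Long intergenic RNAs that carry a serial LINC number were followed through senescence and through a kinase inhibitor in a human fibrosarcoma line. The set holds every gene of the count table whose Ensembl identifier maps to a symbol of LINC followed by 5 digits and whose mean reached 1 CPM (counts of the gene per 1000000 counts of the library) in at least 1 of the 5 groups. It has 275 genes, of the 2267 genes with such a symbol (12.1%) and of 60670 genes in the table. A further 824 LINC genes had no count in any library. The 275 genes carry 274 symbols, because LINC01605 stands for 2 identifiers. The genes were thus selected on their own levels in all 5 groups. A gene that met the rule in some groups only, be it 1 or several, differs between groups by construction. Between a group where it met the rule and one where it did not, the gap and p-value support nothing by themselves. Counts of these genes called in a comparison describe the set and support nothing by themselves either.

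Long intergenic non-coding RNAs are transcripts that do not encode a known protein and are made from genes that lie apart from coding genes. Most are transcribed by RNA polymerase II, spliced and polyadenylated, but many are short-lived in the nucleus, where the RNA exosome and its adaptors degrade them. A LINC number is a placeholder given to such a gene before a function is known, so for most of them no role can be stated. Their levels are usually low and vary more between cell states than those of coding genes.

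The cells were HT-1080, an established line from a human fibrosarcoma, and each group had 3 libraries labelled as biological replicates. The cycling group had DMSO, the vehicle, with a time label of 6 h. To make the senescent groups, a dominant negative form of TRF2, a protein that caps telomeres, was expressed for 6 days, followed by DMSO for 6 h or 24 h or by GNF-7 at 1 uM for the same times. GNF-7 is a tyrosine kinase inhibitor, and the title of the study names GCN2, a kinase that senses amino acid shortage, as the protein it activates. All 4 senescent groups therefore carried the TRF2 mutant, no cycling cells received GNF-7, and no cycling group was labelled 24 h. The groups come from 1 line, and the promoter that drives the mutant is not given in the sources used here. Library totals ranged from 25991007 to 32323393 counts. The mesenchymal markers VIM, SPARC, FN1 and CD44 were at 602 to 4500 CPM in every library, PDGFRB was at 7.55 to 14.8 CPM and S100A4 at 0.162 to 3.1 CPM, THY1 had no count in any library and FAP was at most 0.442 CPM. EPCAM, CDH1, PTPRC and CD3E were each at most 0.243 CPM, while CD68, a marker of macrophages, was at 1.86 to 4.6 CPM and PECAM1, an endothelial marker, at 0.24 to 1.06 CPM. The proliferation marker MKI67 averaged 509 CPM in cycling cells and 149 CPM in senescent cells in DMSO at 6 h, and CDKN1A, the gene of the cell cycle inhibitor p21, averaged 186 and 501 CPM.

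LINC01705 and LINC02806, the genes that mark the set, were followed first. LINC01705 (ENSG00000232679) lies on chromosome 1 at chr1:222041705-222064763 on the minus strand of GRCh38, has 3 exon blocks, overlaps no annotated gene in GENCODE release 29 and is 299529 bases from DUSP10, the nearest coding gene, which encodes a phosphatase of stress kinases. LINC02806 (ENSG00000238107) lies on the same chromosome at chr1:148295180-148297556 on the plus strand, has 2 exon blocks, overlaps AC245100.1 on its own strand and LINC01138, another gene of the set, on the other strand, and is 142858 bases from the coding gene NBPF11. Their promoter windows, from 250 bases before to 50 after a transcript start, are shown with that of LINC01081, because LINC01081 and LINC02806 had the largest GNF-7 changes of the set at 24 h and LINC01705 rose both in senescence and with GNF-7. The sequences are from RefSeq on GRCh38.p14, written 5′ to 3′ on the strand of the gene, and capitals mark matches to a C/EBP-ATF composite motif (TGATGNAA, here as TTGCATCA on the gene's strand), a TATA box (TATAAA) or an AP-1 motif (TGANTCA).
LINC02806 (chr1:148279018-148279317, plus strand): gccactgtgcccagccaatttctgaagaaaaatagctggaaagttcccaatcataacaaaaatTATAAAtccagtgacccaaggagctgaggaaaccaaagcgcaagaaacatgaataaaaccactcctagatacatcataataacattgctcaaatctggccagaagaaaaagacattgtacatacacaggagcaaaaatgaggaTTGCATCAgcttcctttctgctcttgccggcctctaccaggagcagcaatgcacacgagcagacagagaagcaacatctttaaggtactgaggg
LINC01705 (chr1:222059344-222059643, minus strand): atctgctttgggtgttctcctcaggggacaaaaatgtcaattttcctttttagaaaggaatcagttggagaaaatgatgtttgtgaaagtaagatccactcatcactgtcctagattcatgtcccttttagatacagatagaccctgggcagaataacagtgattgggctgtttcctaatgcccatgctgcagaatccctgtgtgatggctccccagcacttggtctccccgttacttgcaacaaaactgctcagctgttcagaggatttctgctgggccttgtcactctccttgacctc
LINC01081 (chr16:86286198-86286497, minus strand): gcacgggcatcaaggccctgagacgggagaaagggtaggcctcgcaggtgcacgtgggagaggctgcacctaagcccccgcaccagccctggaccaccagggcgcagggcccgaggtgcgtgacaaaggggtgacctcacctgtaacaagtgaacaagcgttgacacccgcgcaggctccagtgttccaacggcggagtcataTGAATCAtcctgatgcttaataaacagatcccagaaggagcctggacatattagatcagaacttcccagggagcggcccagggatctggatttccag
The RefSeq start used for LINC02806 is 15912 bases from the GENCODE start, that of LINC01705 5370 bases and that of LINC01081 15056 bases, so each window belongs to a start of the gene in RefSeq and was not shown to be the start used in these cells. In the LINC02806 window the composite match begins 44 bases before the start and TATAAA 187 bases before it, and in the LINC01081 window TGAATCA begins 47 bases before the start. The LINC01705 window held none of these motifs, which says only that these letters are not in that window.

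LINC01705 was nearly silent in cycling cells and present in every senescent library. The cycling libraries held 3, 2 and 4 counts, or 0.121, 0.0688 and 0.131 CPM (here and below scaled by the trimmed mean of M values, TMM). Senescent libraries in DMSO at 6 h were at 8.94, 9.28 and 10.5 CPM, and those in DMSO at 24 h at 10.5, 9.70 and 10.6 CPM. With GNF-7 the libraries were at 15.8, 14.8 and 13.8 CPM at 6 h and at 39.1, 35.3 and 39.8 CPM at 24 h. No cycling library came near a senescent one, and at each time no GNF-7 library overlapped its vehicle group. The log2 fold change in senescence was 6.44 (SE 0.223, edgeR adjusted p = 4.92e-35). LINC01705 met the level rule only in senescent groups, so this gap and p-value support nothing by themselves. GNF-7 raised the gene by 0.63 (SE 0.092, edgeR adjusted p = 6.52e-08) at 6 h and by 1.89 (SE 0.087, edgeR adjusted p = 3.35e-28) at 24 h on the log2 scale, and these effects differed by 1.26 (SE 0.127, edgeR adjusted p = 1.46e-12).

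LINC02806 was low in every group without GNF-7 and rose with GNF-7 at both times. Cycling libraries were at 1.37, 0.792 and 0.947 CPM, and senescent libraries in DMSO at 0.464, 0.347 and 0.833 CPM at 6 h and 0.478, 0.423 and 0.426 CPM at 24 h. With GNF-7 they were at 7.16, 8.5 and 8.5 CPM at 6 h and at 14.2, 19 and 15 CPM at 24 h. Every GNF-7 library exceeded every other library, whereas the cycling and senescent DMSO libraries at 6 h overlapped. The log2 effect of GNF-7 was 3.88 (SE 0.209, edgeR adjusted p = 3.10e-24) at 6 h and 5.16 (SE 0.207, edgeR adjusted p = 3.93e-31) at 24 h. Means without GNF-7 were 1.04 CPM in cycling cells and 0.548 and 0.442 CPM in senescent cells in DMSO at 6 h and 24 h. These are near or under the 1 CPM of the level rule, and the place of LINC02806 in the set rested on the GNF-7 groups. Its gaps and p-values for GNF-7 therefore support nothing by themselves. The senescence change of -0.91 (edgeR adjusted p = 0.00456) was lost without cycling replicate 1 (-0.69, adjusted p = 0.0567) or without senescent DMSO 6 h replicate 2 (-0.66, adjusted p = 0.0566). The difference between the effects at 24 h and 6 h, 1.28 (edgeR adjusted p = 0.00543), was lost without senescent DMSO 6 h replicate 3 (0.86, adjusted p = 0.138). LINC01138, on the other strand of the same locus, rose by 0.39 at 6 h and 0.99 at 24 h, and whether the counting kept the strands apart is not given in the sources used here.

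**Figure D1:**
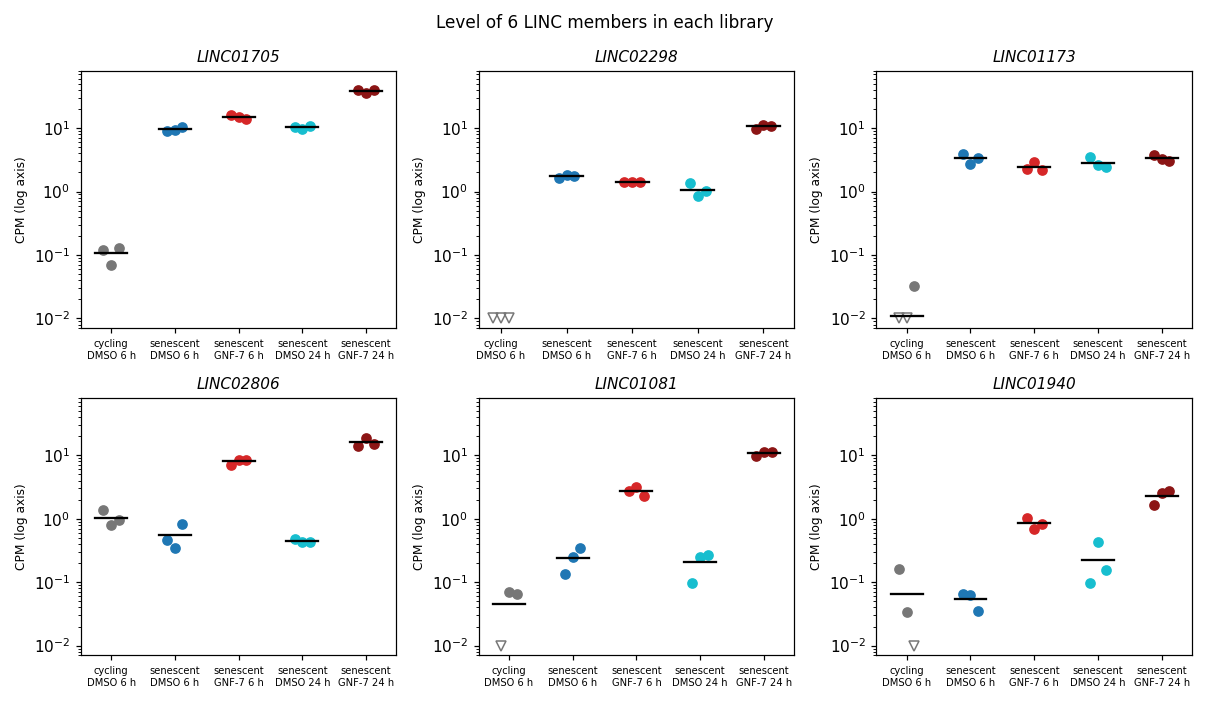
Level of 6 LINC genes in each library, in CPM on a log axis, for the 5 groups of 3 libraries. Points are libraries, black lines are group means, and open triangles at the bottom are libraries with no count. The upper row shows genes near 0 in cycling cells and the lower row genes that rose with GNF-7 at both times.

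The other genes of the set were spread over chromosomes 1 to 22 and X, with 38 on chromosome 1, 20 on chromosome 2 and 17 on chromosome 7. GENCODE release 29 typed 222 (80.7%) as lincRNA, 13 as antisense and 1, LINC02693, as coding. In the same annotation 135 (49.1%) overlapped no other gene, 64 overlapped a gene on their own strand and 116 one on the other strand, 15 and 11 of them a coding gene. Values of overlapping genes are uncertain for the same reason of strand. The median length of the merged exons was 2450 bases, and 30 genes (10.9%) were a single exon block. A match of at least 97% identity over at least 200 bases in another gene elsewhere was found for 27 of the 275. Among them were LINC00431, LINC00623, LINC01138, LINC02087, LINC02966 and LINC03061. The values of these 27 genes could include or lose reads of the copy.

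Most genes of the set were at low levels. The median of the mean CPM over the 15 libraries was 2.60, with quartiles at 1.15 and 6.48, and the highest was 139.9. Per kilobase of exon, LINC01029 had a mean of 67.3 CPM per kilobase over the 15 libraries, LINC01705 25.9 and LINC00839 18.5, while the median of the set was 1.22. LINC00511, with 27605 bases of exon, had only 0.606 CPM per kilobase.

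The most abundant gene, LINC01029 (chr18:77971294-77993722, minus strand), was highest in cycling cells. It was at 211, 211 and 214 CPM in cycling libraries and at 123, 124 and 124 CPM in senescent DMSO libraries at 6 h. No library of either group overlapped the other, and it fell by 0.78 on the log2 scale (SE 0.039, edgeR adjusted p = 5.74e-27). With GNF-7 it was between 115 and 124 CPM, next to 123 to 133 CPM in DMSO at either time, a difference of -0.05 at 6 h that did not pass the test (edgeR adjusted p = 0.293) and a fall of 0.13 at 24 h (edgeR adjusted p = 0.003). It overlaps AC134978.1 on the same strand, and no coding gene lies within 693398 bases.

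The gene second in mean level, LINC00963 (chr9:129483451-129513686, plus strand), rose at each step. Its cycling libraries were at 37.2, 32.5 and 34.3 CPM and its senescent DMSO libraries at 84.8, 79.1 and 85.7 CPM at 6 h, up by 1.27 in log2 (SE 0.052, edgeR adjusted p = 1.39e-30). GNF-7 libraries were at 116, 125 and 123 CPM at 6 h and 159, 142 and 144 CPM at 24 h, against 83.9, 90.3 and 89.8 CPM in DMSO at 24 h. The GNF-7 log2 fold changes were 0.54 and 0.75 (edgeR adjusted p = 4.78e-15 and 9.91e-22), and no GNF-7 library overlapped its vehicle group. LINC00205, whose promoter faces that of POFUT2, an enzyme that adds fucose to proteins, 152 bases away, rose in senescence from 25.7 ± 0.192 to 63.9 ± 0.658 CPM (SD, n = 3), as POFUT2 did (log2 fold changes 1.31 and 1.17). LINC01278, inside whose span lies the coding gene SPIN4 on the same strand, rose with senescence (0.47) and with GNF-7 (0.34 at 6 h and 0.87 at 24 h).

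LINC00662 (chr19:27684580-27793940, minus strand) and LINC02693 (chr17:21428381-21574517, minus strand) were the abundant genes that moved with GNF-7 most. LINC00662 was at 18.7, 18.2 and 18.0 CPM in cycling cells and at 17, 18 and 17 CPM in senescent cells in DMSO at 6 h, a log2 difference of -0.08 that did not pass the test (edgeR adjusted p = 0.311). It was at 54.4, 53.6 and 55.0 CPM after 6 h of GNF-7 and at 64.2, 59.8 and 56.8 CPM after 24 h, against 17.2, 16 and 15.8 CPM in DMSO at 24 h. Every GNF-7 library thus lay above every other library, by log2 fold changes of 1.65 (SE 0.063, edgeR adjusted p = 8.35e-32) and 1.88 (SE 0.064, edgeR adjusted p = 4.57e-35). LINC02693 fell in senescence from 41.8 ± 2.16 to 32.1 ± 1.88 CPM (SD, n = 3) and rose with GNF-7 to 62.8 ± 2.36 CPM at 6 h and 66.9 ± 2.74 CPM at 24 h.

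**Figure D2:**
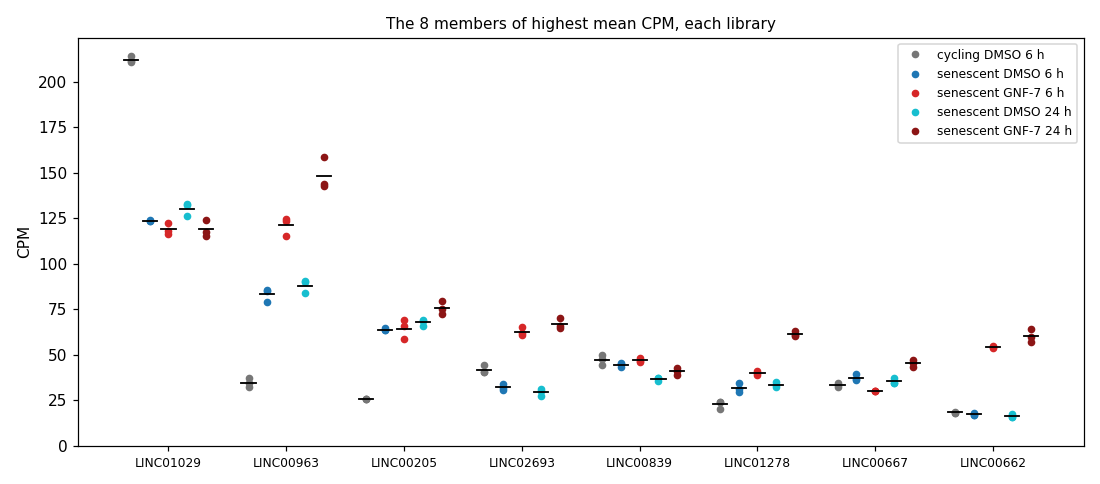
CPM in each of the 15 libraries for the 8 LINC genes with the highest mean level, with black lines at group means. LINC01029 is highest in cycling cells, at 211 to 214 CPM, and LINC00662 and LINC02693 are higher in both GNF-7 groups than in any other group.

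Summed, the set took up a small share of each library, which differed between the groups. It was 0.1266 to 0.1286% of counts in cycling cells, 0.1663 to 0.1681% in senescent cells in DMSO at 6 h and 0.1961 to 0.2064% with GNF-7 at 6 h. At 24 h it was 0.1614 to 0.1625% in DMSO and 0.2167 to 0.2208% with GNF-7. The ranges of GNF-7 and vehicle did not overlap at either time, and no p-value is given because the genes were chosen with their levels known. The level rule was met by 159 genes of the set in cycling cells, 206 and 202 in senescent cells in DMSO at 6 h and 24 h, and 237 and 259 with GNF-7 at 6 h and 24 h. In all 5 groups it was met by 152 genes, in all 4 senescent groups and not in cycling cells by 42, and in both GNF-7 groups alone by 22. A further 43 met it in 1 group only, of which 30 did so with GNF-7 at 24 h, 9 with GNF-7 at 6 h, 2 in cycling cells and 2 in senescent cells in DMSO at 6 h. The same counts over all 15370 genes that meet the rule are not given here, so these numbers are not shown to be particular to LINC genes. In a bulk library, fewer cells that express a gene and less of its RNA in each cell cannot be told apart.

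LINC genes of any level followed the same order. A count was found for 509 to 537 of the 2267 LINC genes in cycling libraries, 710 to 732 and 698 to 724 in senescent DMSO libraries at 6 h and 24 h, and 822 to 839 and 843 to 883 in GNF-7 libraries at 6 h and 24 h. Genes of every kind with a count moved alike, from 22093 to 22395 in cycling libraries to 26476 to 26774 with GNF-7 at 24 h. The share of counts from mitochondrial genes moved with the groups too, at 3.753 to 5.009%, 11.15 to 12.42%, 13.23 to 15.32%, 15.09 to 18.68% and 22.56 to 24.08% in cycling cells, DMSO 6 h, GNF-7 6 h, DMSO 24 h and GNF-7 24 h. The summed level of 4 epithelial markers (EPCAM, CDH1, KRT5 and ESRP1) was 0 to 0.172 CPM in cycling libraries, 0.173 to 0.41 and 0.106 to 0.255 CPM in DMSO at 6 h and 24 h, and 0.972 to 1.24 and 2.22 to 3.24 CPM with GNF-7 at 6 h and 24 h, most of it ESRP1, while EPCAM was at most 0.221 CPM. With GNF-7 at 24 h, MKI67 averaged 39.1 CPM against 125 CPM in DMSO, TOP2A 34.8 against 92.8, SPARC 623 against 3250 and FN1 860 against 1890. The part of any of these in the rise of the set was not tested.

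**Figure D3:**
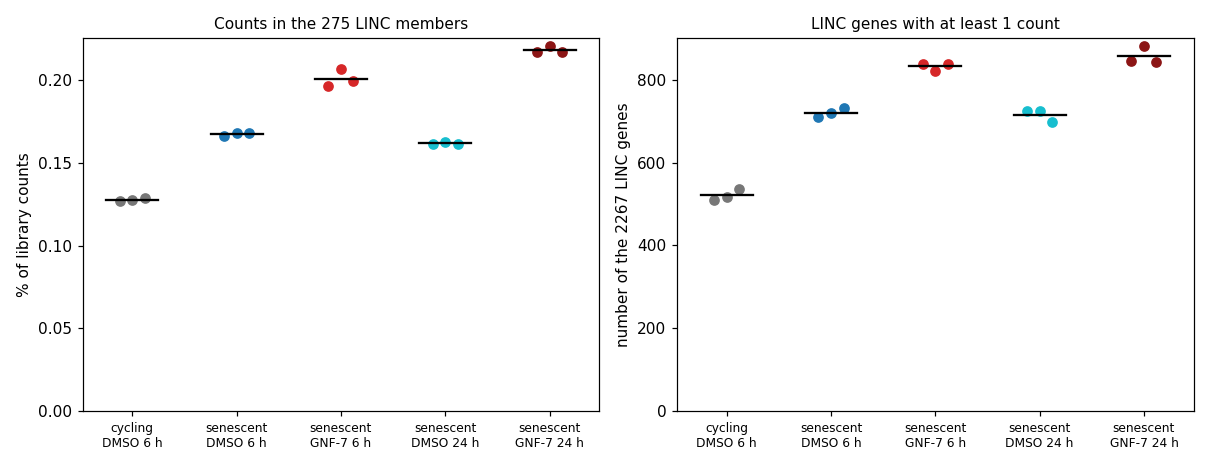
For each of the 15 libraries, the percent of counts in the 275 LINC genes and the number of LINC genes with at least 1 count. GNF-7 libraries at 24 h lie highest, at 0.2167 to 0.2208% of counts, and cycling libraries lowest, at 0.1266 to 0.1286%.

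Senescent against cycling cells, both in DMSO at 6 h, was the comparison with the most calls in the set. Of the 275 genes, 162 were called higher and 31 lower (edgeR quasi-likelihood test, Benjamini-Hochberg adjusted p under 0.05 over all 18563 genes tested), beside 35.6% of all genes tested called higher and 34.4% lower. A rise of at least 2-fold was seen for 117 and a fall of that size for 6, beside 18.5% and 7.56% of all genes. The median log2 fold change of the set was 0.77, next to 0.06 over all genes, 0.61 over 1696 other long non-coding genes that meet the same level rule and -0.11 over 12538 coding genes that do. With the rule replaced by a mean of 1 CPM over all 15 libraries, 124 of 215 genes were called higher and 30 lower. That rule still leans to genes high in senescence, since 12 of the 15 libraries are senescent. The libraries of both groups did not overlap for 192 genes (69.8%), beside 71.5% of all genes tested.

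Several of the largest rises were of genes with no or 1 count in the cycling group. Such genes entered the set through senescent groups alone, so their rises here support nothing by themselves. LINC02298 (chr14:105093609-105099004, plus strand) had no count in any cycling library and was at 1.62, 1.80 and 1.77 CPM in senescent cells, at least 48.8-fold higher when 3 counts over the cycling group are taken as the floor. LINC01173 (chr2:234682668-234717764, plus strand) had 1 count in the cycling group and 301 in the senescent one, a ratio of 281 with a 95% counting interval from 49.97 to 11118, and was at 3.84, 2.75 and 3.40 CPM in senescent libraries. LINC01707 and LINC02688 had no cycling count either and were at least 11.5-fold and 7.77-fold higher. The nearest tested coding genes of LINC02298 and LINC02688, JAG2, which encodes a Notch ligand, and MUC2, which encodes a mucin, lie 41977 and 19126 bases away and were also higher in senescence, by log2 fold changes of 2.76 and 2.74 (edgeR adjusted p = 6.29e-15 and 0.000308). Setting the 6 genes with no cycling count to their lower bounds left the median of the set at 0.77.

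The falls in senescence were fewer. LINC00707 (chr10:6779549-6879450, plus strand) was at 21.2, 24.3 and 22.0 CPM in cycling libraries and 3.18, 4.42 and 2.53 CPM in senescent ones, a log2 change of -2.73 (SE 0.136, edgeR adjusted p = 6.89e-27) with no overlap. LINC02840 (chr6:152794496-152831913, minus strand) went from 3.78, 3.17 and 2.71 to 0.729, 0.663 and 0.694 CPM, a change of -2.20 (SE 0.280, edgeR adjusted p = 3.02e-10). Its nearest coding gene, VIP, which encodes a neuropeptide and lies 34731 bases away on the other strand, rose by 2.67 (edgeR adjusted p = 5.64e-06). LINC02669 (-2.16), LINC01852 (-1.20) and LINC02087 (-1.17) completed the 5 largest falls, and LINC02669 had 3, 12 and 11 counts in the senescent libraries.

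GNF-7 at 6 h was compared with DMSO at 6 h in senescent cells. It raised 85 genes of the set and lowered 16 (edgeR adjusted p under 0.05), beside 17.9% of all genes tested called higher and 21.4% lower. A rise of at least 2-fold was seen for 33 genes, beside 4.16% of all genes, and a fall of that size for none, beside 0.566%. The count of falls was 10 without senescent GNF-7 6 h replicate 3. The median log2 fold change was 0.30, next to 0.01 over all genes, 0.25 over the other long non-coding genes and -0.05 over the coding genes of the same level. LINC02806, LINC01940, LINC01081, LINC01517 and LINC00239 rose most.

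LINC01081 and LINC01940 were close to the counting floor without GNF-7. LINC01081 (chr16:86221423-86301303, minus strand), whose nearest coding gene is the lung and gut mesenchyme transcription factor gene FOXF1 at 209224 bases, was at 0.132, 0.253 and 0.347 CPM in DMSO at 6 h and at 2.72, 3.15 and 2.32 CPM with GNF-7. At 24 h it was at 0.0957, 0.247 and 0.271 CPM in DMSO and at 9.92, 11.1 and 11.1 CPM with GNF-7. No vehicle library reached a GNF-7 library, and the log2 fold changes were 3.47 (SE 0.296, edgeR adjusted p = 1.80e-15) at 6 h and 5.72 (SE 0.272, edgeR adjusted p = 1.46e-27) at 24 h. LINC01081 met the level rule only with GNF-7, so these gaps and p-values support nothing by themselves. LINC01940 (chr2:238919302-238926269, minus strand), 8759 bases from TWIST2, which encodes a transcription factor of mesenchymal cells, was at 1.04, 0.686 and 0.827 CPM with GNF-7 at 6 h and 1.67, 2.57 and 2.72 CPM at 24 h. Its vehicle libraries were at 0.0662, 0.0631 and 0.0347 CPM at 6 h, which is 1 or 2 counts each, and at 0.0957, 0.423 and 0.155 CPM at 24 h. The log2 fold changes of LINC01940 were 3.85 (SE 0.618, edgeR adjusted p = 5.24e-07) and 3.35 (SE 0.455, edgeR adjusted p = 3.18e-09). FOXF1 and TWIST2 themselves differed by 0.15 and 0.08 at 6 h and by 0.44 and 0.14 at 24 h.

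At 24 h GNF-7 changed more of the set than at 6 h. Against DMSO at 24 h it raised 138 genes and lowered 29 (edgeR adjusted p under 0.05), beside 29.3% of all genes tested called higher and 29.7% lower. Rises of at least 2-fold numbered 66 and falls 7, beside 10.3% and 3.92% of all genes. The median log2 fold change was 0.45, next to 0.04 over all genes, 0.41 over the other long non-coding genes and -0.07 over the coding genes of the same level. With the rule of a mean of 1 CPM over all 15 libraries, 104 of 215 genes were called higher and 29 lower, and 64 and 16 at 6 h. LINC01081, LINC02806, LINC01940, LINC02298 and LINC02688 rose most, LINC02688 by 2.90 (SE 0.550, edgeR adjusted p = 9.09e-06) from 0.160, 0.388 and 0.0387 CPM to 1.07, 1.75 and 1.69 CPM. LINC01940 and LINC02688 reached a mean of 1 CPM only with GNF-7 at 24 h and entered the set through that group. Their rises and p-values at 24 h therefore support nothing by themselves. The same holds for LINC01081 and LINC02806, whose place in the set rested on the GNF-7 groups.

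**Figure D4:**
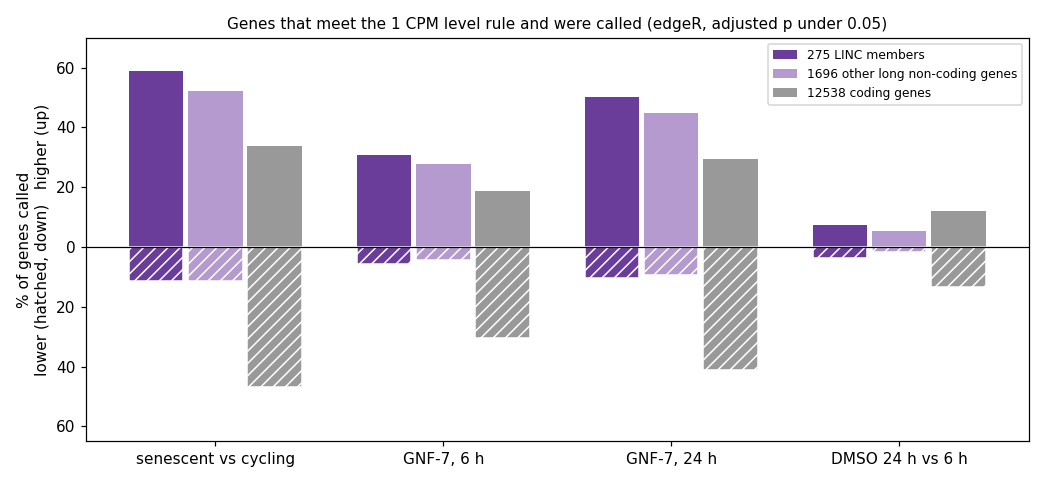
Percent of genes called higher (solid bars, up) and lower (hatched bars, down) by edgeR in 4 comparisons, among the 275 LINC genes, 1696 other long non-coding genes and 12538 coding genes that meet the same level rule. Both non-coding sets were called higher more often than lower in senescence and with GNF-7, while coding genes were called lower more often than higher.

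Of the 29 genes that GNF-7 lowered at 24 h, 12 had been called higher in senescence, 10 were not called and 7 were lower. Among genes of the same level that GNF-7 lowered at 24 h, these numbers were 1294, 824 and 3300. LINC00472 (chr6:71344344-71420769, minus strand), within whose span lie the microRNA genes MIR30A and MIR30C2, was at 9.89, 10.3 and 10.7 CPM in cycling cells and 21.9, 22.6 and 26.2 CPM in senescent cells in DMSO at 6 h. With GNF-7 it was at 13.3, 15.7 and 13.8 CPM at 6 h and 7.65, 7.79 and 7.04 CPM at 24 h, against 21.1, 19.8 and 20.9 CPM in DMSO at 24 h. It thus rose by 1.19 in senescence and fell by 0.72 and by 1.46 with GNF-7 on the log2 scale (edgeR adjusted p = 9.52e-19, 1.60e-10 and 1.99e-21), with no overlap between the groups compared. LINC00452 (chr13:113888306-113923512, plus strand) went from 12.2, 12.9 and 13.0 CPM to 4.31, 5.42 and 5.54 CPM at 24 h, a change of -1.32 (SE 0.115, edgeR adjusted p = 1.25e-15), and GAS6, which encodes a ligand of the AXL receptor and lies 24239 bases away, changed by -1.31. LINC01776 had the largest fall at 24 h (-1.96, SE 0.377, edgeR adjusted p = 8.57e-06), from 1.21, 1.23 and 1.59 CPM to 0.301, 0.520 and 0.199 CPM. LINC00431 (-1.20) and LINC03061 (-1.16) followed LINC00472 and LINC00452 in size, and both share sequence with other genes. At 6 h the falls were smaller, the largest being LINC03060 at -0.73, LINC00472 at -0.72 and LINC01186 at -0.71. The LINC01186 call was lost without senescent DMSO 6 h replicate 3 (-0.61, adjusted p = 0.0799) and without GNF-7 6 h replicate 1 (-0.63, adjusted p = 0.0616) or 3 (-0.53, adjusted p = 0.126).

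What GNF-7 did at 6 h and at 24 h was measured in separate libraries. Of the 275 genes, 68 were called higher at both times and 12 lower at both, 67 were called higher at 24 h alone and 17 at 6 h alone. These are 24.7%, 4.4%, 24.4% and 6.2% of the set, beside 15.1%, 20.9%, 16.1% and 3.7% of the 15370 genes of the same level. The 3 genes called lower at 6 h and higher at 24 h were LINC00667, LINC03060 and LINC02210, the last of which lies outside the rule for named genes and was chosen after its values were seen, and none was called higher at 6 h and lower at 24 h. LINC00667 was at 39.2, 36.1 and 36.6 CPM in DMSO and 29.9 to 30.1 CPM in the GNF-7 libraries at 6 h, and at 34.6, 34.5 and 37.4 CPM and 43.1, 45.5 and 47.0 CPM at 24 h. Neither pair of groups overlapped. It shares its locus with LINC00526 on the other strand, which changed by 0.86 at 6 h. The LINC03060 rise at 24 h (0.46, edgeR adjusted p = 0.0444) was lost in 7 of the 15 fits that each left out 1 library, where it ranged from 0.39 to 0.52. Across the 275 genes the log2 fold changes at both times had a Pearson correlation of 0.67, next to 0.70 over 15370 genes of the same level, which describes genes of the same libraries and not independent replicates.

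A test of the difference between the effects at 24 h and 6 h called 45 genes larger at 24 h and 17 smaller (edgeR adjusted p under 0.05), beside 12.8% and 18.0% of all genes tested. The first count was 30 without senescent GNF-7 6 h replicate 1. LINC02298 was the most changed, with 1.62, 1.80 and 1.77 CPM in DMSO and 1.43, 1.41 and 1.43 CPM with GNF-7 at 6 h, and 1.34, 0.846 and 1.01 CPM and 9.75, 11.3 and 10.8 CPM at 24 h. Its effect was -0.28 at 6 h (edgeR adjusted p = 0.318) and 3.30 at 24 h (SE 0.194, edgeR adjusted p = 1.02e-22), a difference of 3.59 (SE 0.294, edgeR adjusted p = 1.09e-15). LINC01828 and LINC02641 had the same course, with effects of -0.09 and 0.05 at 6 h and 2.54 and 2.31 at 24 h. LINC01828 was at 0.882 CPM over the senescent DMSO libraries at 6 h and met the level rule only with GNF-7 at 24 h. Its rise at 24 h and its difference between times therefore support nothing by themselves. LINC00511 went the other way. It was at 13.1, 12.5 and 12.2 CPM in DMSO and 25.5, 21.2 and 25.8 CPM with GNF-7 at 6 h, and at 14.9, 15.1 and 13.2 CPM and 14.8, 13.2 and 13.9 CPM at 24 h. Its rise of 0.94 (SE 0.085, edgeR adjusted p = 1.59e-14) at 6 h stood against -0.05 (edgeR adjusted p = 0.656) at 24 h, a difference of -0.99 (SE 0.123, edgeR adjusted p = 1.04e-09). LINC00707, lowered by senescence, had 0.82 at 6 h and -0.02 at 24 h, a difference of -0.84 (edgeR adjusted p = 0.00212).

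**Figure D5:**
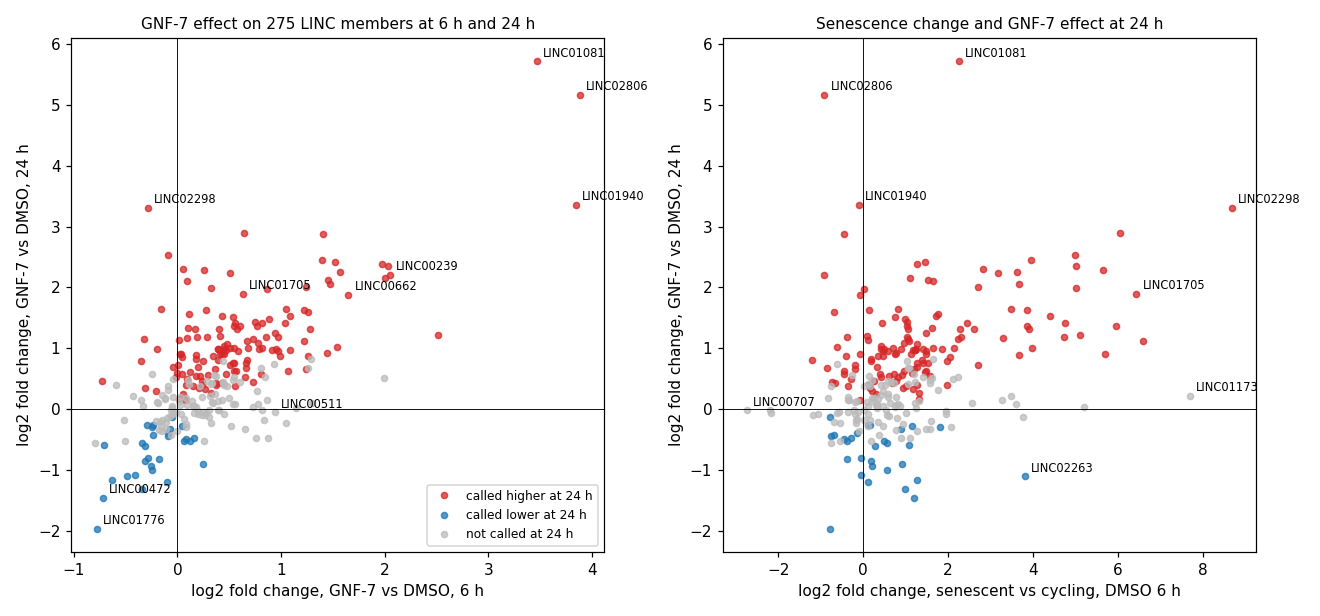
Log2 fold changes of the 275 LINC genes, with GNF-7 at 24 h on the y axis against GNF-7 at 6 h (left) and against senescence (right). Red, blue and grey points are genes called higher, lower or not called at 24 h, and LINC01081 and LINC02806 lie at the top, at 5.72 and 5.16.

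Senescence and GNF-7 at 24 h share no library either. Both raised 99 genes of the set, LINC01705 and LINC02298 among them, and both lowered 7, which is 36.0% and 2.5% of the set beside 17.5% and 21.5% of the 15370 genes of the same level. Senescence raised and GNF-7 lowered 12, with LINC00472 and LINC00452 among them, and the reverse held for 11, with LINC02693 and LINC02806 among them (4.4% and 4.0%, beside 8.4% and 7.6%). Among the named genes that senescence raised and GNF-7 lowered, LINC02263 (chr4:117360625-117372852, plus strand) had the widest contrast. It was at 0.442, 0.241 and 0.229 CPM in cycling cells and at 4.47, 4.33 and 3.88 CPM in senescent cells in DMSO at 6 h, a rise of 3.82 (SE 0.271, edgeR adjusted p = 1.05e-19). At 24 h it was at 7.85, 7.30 and 8.16 CPM in DMSO and 2.74, 4.35 and 3.72 CPM with GNF-7, a fall of 1.11 on the log2 scale (SE 0.168, edgeR adjusted p = 6.27e-08). The correlation of both changes across the set was 0.39 (Pearson), next to 0.44 over genes of the same level.

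Time in vehicle changed little. Between senescent cells in DMSO at 24 h and at 6 h, 20 genes of the set were called higher and 10 lower (edgeR adjusted p under 0.05), beside 9.26% and 9.29% of all genes tested. Scaling by total counts alone turned this balance to 9 higher and 24 lower, moving the median of all genes from 0.01 to -0.10 and that of the set from 0.09 to -0.02. LINC02263 rose by 0.88 (SE 0.166, edgeR adjusted p = 5.03e-05) and LINC00839 fell by 0.28 on the log2 scale (SE 0.056, edgeR adjusted p = 0.000143), from 45.2, 45.2 and 43.4 to 37.5, 35.8 and 37.1 CPM, and both calls held in all 15 fits that left out 1 library. The 10 other named calls in this comparison were each lost in 2 to 5 of those fits. Without senescent DMSO 6 h replicate 3, 11 genes of the set were called higher and 4 lower.

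At the other end, LINC00641, which lies 2236 bases from HNRNPC, a gene of an RNA-binding protein, averaged between 15 and 15.6 CPM in every group, and its effects lay between -0.06 and 0.02 in the 4 comparisons. LINC02864 averaged 11.4 to 13.4 CPM and LINC01234 28.6 to 33.2 CPM. These are the 3 genes with the narrowest range of group means, which is a description, and LINC01234 was called lower with GNF-7 at 6 h (-0.19, edgeR adjusted p = 0.0131), a call lost in 3 of the 15 fits that each left out 1 library (-0.25 to -0.15). At the threshold, LINC02955, LINC02166 and LINC01707 entered with a highest group mean of 1.015, 1.016 and 1.03 CPM of the column total, and LINC02362, LINC02050 and LINC00261 stayed out at 0.9947, 0.9903 and 0.9866 CPM.

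A LINC name is given to genes apart from coding genes, so position relative to coding genes was in part fixed by the choice of the set, and the values for neighbours are a description. The nearest tested coding gene was called in the same direction as the LINC gene for 79 of 193 called in senescence (40.9%), 27 of 101 with GNF-7 at 6 h (26.7%) and 56 of 167 at 24 h (33.5%). It was called in the opposite direction for 70, 27 and 60. For the other long non-coding genes of the same level the shares were 45.6%, 37.2% and 39.6%. A coding start within 1 kb on the other strand was found for 12 genes of the set (4.4%), and the distance to the nearest coding gene had a median of 25914 bases. Among LINC genes within 20 kb of each other, LINC00662 and LINC02987 on opposite strands changed by 1.88 and 0.19 with GNF-7 at 24 h, and LINC02086 and LINC03057 by 1.14 and -0.43. LINC01138, LINC00526, LINC02987 and LINC03057 are named only as such neighbours.

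Lists of genes from pathways that make or remove such RNAs were read beside the set. Of 28 genes of nuclear RNA decay, 3 were called higher and 23 lower in senescence, with a median of -0.58 against 0.06 over all genes. Of all genes tested, 35.6% were called higher there and 34.4% lower. Of the coding genes that meet the level rule, 46.9% were called lower, with a median of -0.11. EXOSC8 and EXOSC9, subunits of the RNA exosome, fell by 2.01 and 1.70 on the log2 scale, and MTREX, the helicase that feeds it, by 0.98. With GNF-7, 5 were higher and 10 lower at 6 h and 6 higher and 18 lower at 24 h, with medians of -0.10 and -0.19. Of all genes tested, 17.9% were called higher and 21.4% lower at 6 h, and 29.3% and 29.7% at 24 h. EXOSC6 was higher at 24 h by 1.02, and EXOSC8, lowered in senescence, was higher by 0.88 at 6 h and 0.66 at 24 h. Of 31 genes of 3′ end formation and the Integrator complex, 2 were higher and 25 lower in senescence (median -0.46), and 3 were higher and 21 lower with GNF-7 at 24 h (median -0.15). NUDT21, a subunit of a cleavage factor, fell by 1.54 on the log2 scale in senescence. The part of these changes in the levels of the LINC genes was not tested. Of 31 tested long non-coding RNAs with names of their own, 22 were higher and 6 lower in senescence (median 1.14), with PURPL, an RNA induced by p53, at 2.32, and 12 were higher and 5 lower with GNF-7 at 24 h (median 0.10). Of 27 tested genes of the integrated stress response, the programme downstream of GCN2, 26 were higher with GNF-7 at each time, with medians of 1.71 and 1.80, and 9 were higher and 17 lower in senescence.

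ATF4 and its partners, the transcription factors of that response, bind a composite of a C/EBP and an ATF element, so the promoter windows of the set were searched for it on both strands. Windows were found for 172 of the 274 symbols, 196 windows in all. TGATGNAA was in 10 of them (5.1%), beside 3.6% of all 35116 windows in the table. TGANTCA, the AP-1 motif, was in 25 (12.8%, beside 7.7%), TGACGTCA, the cyclic AMP response element, in 8 (4.1%, beside 1.8%) and TATAAA in 25 (12.8%, beside 11.5%). By GNF-7 call at 24 h, TGANTCA was in 13.6% of 103 windows of genes called higher. It was in 6.8% of 74 windows of genes not called and 31.6% of 19 of genes called lower. The median number of CG dinucleotides was 8 in windows of the set, beside 14 in all windows. A narrower spelling, TGATGCAA, was chosen after the values were seen and was in 4 windows (2.04%, beside 0.866% of all windows). The 10 stretches of 40 bases around the TGATGNAA matches are printed to show how the matches differ. They are from RefSeq on GRCh38.p14, 5′ to 3′ on the strand of the gene, and capitals mark the match, which in each lies on the other strand.
LINC02806 (chr1:148279208-148279247, plus strand): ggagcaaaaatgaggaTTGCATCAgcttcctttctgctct
LINC01655 (chr1:221840795-221840834, minus strand): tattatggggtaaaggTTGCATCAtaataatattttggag
LINC02863 (chr5:132427463-132427502, minus strand): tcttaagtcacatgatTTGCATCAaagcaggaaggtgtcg
LINC02970 (chr20:62603432-62603471, minus strand): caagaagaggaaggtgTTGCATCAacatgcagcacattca
LINC02288 (chr14:77041034-77041073, plus strand): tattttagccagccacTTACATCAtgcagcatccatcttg
LINC02086 (chr17:48642475-48642514, plus strand): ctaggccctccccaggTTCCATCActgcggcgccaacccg
LINC00623 (chr1:120913059-120913098, plus strand): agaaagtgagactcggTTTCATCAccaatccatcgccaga
LINC01882 (chr18:12749525-12749564, minus strand): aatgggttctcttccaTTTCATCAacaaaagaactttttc
LINC02535 (chr6:85404774-85404813, minus strand): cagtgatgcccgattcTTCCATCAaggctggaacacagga
LINC02669 (chr10:3502929-3502968, minus strand): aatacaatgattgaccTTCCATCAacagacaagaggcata
The first 4 hold TTGCATCA, the narrower spelling, and LINC02806, LINC01655, LINC02863 and LINC02970 were each called higher with GNF-7 at 24 h, by 5.16, 2.29, 0.98 and 1.60 on the log2 scale. LINC02288 (2.35), LINC02086 (1.14) and LINC00623 (0.39) were also called higher at 24 h, and LINC01882, LINC02535 and LINC02669 were not called. Of all 196 windows of the set, 103 belong to genes called higher at 24 h, and TGATGNAA was in 7 of these (6.8%), in 3 of 74 windows of genes not called (4.1%) and in 0 of 19 of genes called lower. In LINC02970 the match begins 14 bases before the RefSeq start, which is 326 bases from the GENCODE start. Its libraries were at 3.80, 2.65 and 3.29 CPM in DMSO and 9.62, 9.94 and 10.1 CPM with GNF-7 at 24 h, with no overlap. The RefSeq starts of LINC02863, LINC02086, LINC02535 and LINC01882 are 703, 4296, 14616 and 26715 bases from the GENCODE starts. LINC01655, LINC02863, LINC02970, LINC02288, LINC02086, LINC00623, LINC01882 and LINC02535 are named for their windows and after their values were seen. A match describes letters in a window, and binding there was not tested.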

How the data were processed

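RNA sequencing of polyadenylated RNA was made from 15 libraries of HT-1080 cells in 5 groups of 3. The authors deposited a table of raw counts per Ensembl gene. STAR 2.7.9a, featureCounts 1.5.1, bcl2fastq 2.20.0.422 and GRCh38 are named in the submitters' processing notes, with no role stated, and the annotation release and the strand setting of the counting are not given in the sources used here. Of 60673 rows, 3 that belong to a broken entry were left out. Symbols were matched for 60400 identifiers (99.55%). Groups came from the labels, which call the 3 libraries of a group biological replicates. Whether these were separate cultures is not said, so p-values measure the spread between these libraries.

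Membership and the level threshold used CPM of the column total; values by library are CPM on library sizes scaled by TMM. Genes passing filterByExpr (18563, with all 275 members) were fitted over all 15 libraries with edgeR 4.0.16 (quasi-likelihood test, robust) in R 4.3.3, and p-values were adjusted over all genes tested by the Benjamini-Hochberg method. Before use, the fit was run on simulated counts with few genes changed, balanced up and down, and the same spread for every gene. That setting differs from these data, so it says nothing about the calls reported here. Gene positions were taken from GENCODE release 29 on GRCh38 and promoter windows from RefSeq on GRCh38.p14. Intervals of count ratios are exact and cover counting error only. Named members were LINC01705, LINC02806, the 5 largest rises and falls among the calls of each of 5 contrasts, the 8 most abundant, the 3 flattest and the 3 on each side of the level threshold, with neighbours within 20 kb and the 4 genes of smallest p of each list. The members and the gene lists were chosen with earlier results of these data known. Alternatives were other scalings, no or another filter, DESeq2 1.42.0, limma 3.58.1 (voom), a replicate block, fits on the groups compared alone, other level rules and leaving out each library in turn.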

Additional observations from a re-analysis of the deposited data

Results flagged for a closer look

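The test of whether GNF-7 acted differently at 24 h than at 6 h (edgeR, adjusted over all genes) called 24 of the named LINC genes, and each value here is the effect at 24 h minus that at 6 h on the log2 scale. The difference was 3.59 for LINC02298, 2.63 for LINC01828, 2.26 for LINC02641, 2.26 for LINC02688, 2.25 for LINC01081, 1.28 for LINC02806 and 1.26 for LINC01705. It was 1.19 for LINC03060, 1.14 for LINC01772, 0.66 for LINC00667, 0.53 for LINC01278, 0.30 for LINC01234, 0.23 for LINC00662, 0.21 for LINC00963 and 0.21 for LINC02693. It was negative for LINC01275 (-1.35), LINC02966 (-1.28), LINC02057 (-1.15), LINC00431 (-1.10), LINC00511 (-0.99), LINC00452 (-0.97), LINC00707 (-0.84), LINC00472 (-0.74) and LINC03061 (-0.52). LINC01828 and LINC02688 entered the set through GNF-7 at 24 h alone, so their differences support nothing by themselves.

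Leaving out 1 library ended some of these calls. That of LINC00662 was lost in 10 of 15 such fits (0.18 to 0.27), that of LINC02688 in 8 (1.63 to 3.16), that of LINC03061 in 7 (-0.64 to -0.42), that of LINC02693 in 6 (0.16 to 0.25) and that of LINC01772 in 3 (0.87 to 1.42). The call of LINC00963 was lost without senescent DMSO 24 h replicate 1 or senescent GNF-7 24 h replicate 1 (0.16 to 0.24 over the 15 fits). LINC01275 lost its call without senescent GNF-7 6 h replicate 2, and LINC02806 without senescent DMSO 6 h replicate 3, with ranges of -1.55 to -1.02 and 0.86 to 1.53. The other 16 kept the call in all 15 fits. Other tools and settings ended some calls too. LINC00662 lost its call with RLE size factors (0.22, adjusted p = 0.0581), with no filter (0.23, adjusted p = 0.0979), with limma voom (0.23, adjusted p = 0.0586) and with DESeq2 (0.22, adjusted p = 0.0693). LINC02693 lost it with RLE size factors (0.20, adjusted p = 0.0535), with no filter (0.21, adjusted p = 0.0672) and with DESeq2 (0.20, adjusted p = 0.0793). LINC02806 lost it with limma voom (1.17, adjusted p = 0.0731), and LINC02688 and LINC03061 with DESeq2 (2.29 and -0.54, adjusted p = 0.066 and 0.0618).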

How the results depend on the processing

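In the comparison of vehicle times, 20 genes of the set were called higher and 10 lower, which became 9 and 24 with total counts as the only scaling, 13 higher with no filter on low counts, and 6 lower with DESeq2. All other counts of calls under the other scalings, filters and tools were within 1.5 times the reported ones. With total counts the median over all genes in senescence was 0.195 in place of 0.062, and 177 genes of the set were then called higher and 27 lower. Leaving out 1 library at a time gave 143 to 161 higher and 28 to 31 lower in senescence, 69 to 86 and 10 to 17 with GNF-7 at 6 h, and 121 to 138 and 25 to 31 at 24 h. It gave 30 to 49 and 14 to 19 for the difference between times, and 11 to 21 and 4 to 10 for vehicle time. Same-numbered libraries deviated together weakly at most: none of 30 pairs had a correlation over 0.1 (-0.0369 to 0.0579), and 13 correlated best with their own number. Most of these 13 were pairs of senescent groups, the highest being replicate 1 of DMSO and GNF-7 at 24 h (0.0579). The main fit had no term for replicate number, and whether replicates shared a batch was not tested. With the replicate block, 161 and 31 genes were called in senescence, 85 and 17 with GNF-7 at 6 h, 138 and 30 at 24 h, 47 and 19 for the difference and 21 and 10 for vehicle time. Of 5340 values of 47 named genes under these alternatives, 195 lost a call, 46 gained one and 0 of 2983 called values changed sign. A level rule at 0.5 or 2 CPM gave 362 or 202 genes. Genes with a few counts per library, such as LINC01940 and LINC02688, are limited by depth.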
